A study of Rattus norvegicus with 6 samples.

Results

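Ribosome biogenesis and nucleolar factors are the proteins that transcribe, modify, cut and fold ribosomal RNA and load ribosomal proteins onto it. The genes described here were chosen by name from the authors' deposited comparison. They are those whose symbol begins with Nop, Nol, Utp or Rrp followed by a digit, together with 16 named nucleolar genes such as Fbl, Ncl, Npm1 and Dkc1. This took 41 of 17172 listed genes, and 40 of them passed the filter on low counts. Tsr1, which was also in the rule, is not analysed here. The study injected ACI rats aged 6 to 8 weeks intraperitoneally with phenylhydrazine (PHZ, a red cell oxidant that causes haemolytic anaemia) at 100 mg/kg or with the same amount of phosphate-buffered saline (PBS). Marrow of the hind legs was taken 36 h later. Cells carrying c-kit, the stem cell factor receptor of haematopoietic progenitors and early erythroid cells, were enriched with a biotinylated antibody and streptavidin particles, and polyadenylated RNA was sequenced. There were 3 rats a group and 1 library per rat, with 2 female labels and 1 male label on each side. Y-linked transcripts, given below, did not bear out this balance.

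Ribosome production starts in the nucleolus, where RNA polymerase I transcribes one long precursor of the ribosomal RNAs. Small nucleolar RNPs (snoRNPs) guide chemical modification of that precursor: box C/D particles carry the methyltransferase fibrillarin, and box H/ACA particles carry the pseudouridine synthase dyskerin. The small subunit processome and a separate chain of large subunit assembly factors then cut and fold the precursor. Growing and dividing progenitors need many ribosomes, and inherited defects of ribosome production or of ribosomal proteins often show first as failure of red cell formation.

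The libraries held 13196249 to 19492793 expected counts. Kit itself stood at 51.7 to 63.9 CPM in PBS and 33.9 to 71.7 CPM in PHZ libraries, and all libraries also held globin transcripts, at 8.95% to 20.9% of counts. Y-linked transcripts went against the sex label in 3 libraries, PBS replicates 1 and 2 and PHZ replicate 3. The Y-linked gene Ddx3y had 142.1 CPM in PBS replicate 1 and 99.6 and 107.7 CPM in PHZ replicates 2 and 3. In the other libraries it was at 0 CPM. By these transcripts sex was not balanced between the groups, with Ddx3y found in more PHZ than PBS libraries. Sex as these transcripts show it was not tested as a covariate. PBS replicate 1 stood apart in stromal and endothelial markers: its 4 tested markers summed to 511.9 CPM, against 65.4 and 68.5 CPM in the other PBS and 21.9 to 40.1 CPM in the PHZ libraries. Its monocyte and macrophage markers summed to 1628 CPM, against 693.1 and 769 CPM in the other PBS and 670 to 1048 CPM in the PHZ libraries. Its neutrophil markers were the lowest of the PBS libraries, at 10830 CPM against 20680 and 17480 CPM. CPM here is a gene's count scaled to its library's total with edgeR's TMM factors, and FPKM is the authors' value, which also divides by transcript length. Levels of different genes are compared in FPKM only.

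Transcripts of these genes were more abundant in PHZ rats. Of the 40 tested, 16 rose and none fell at an edgeR adjusted p under 0.05, and 24 were not called. Across all 13547 tested genes 8.99% were called higher and 4.17% lower. For the genes in the lower direction edgeR also gave 0 at an unadjusted p under 0.05, and DESeq2 gave 0 by either measure. An estimate above 0 was found for 37 of the 40, against 47.6% of all tested genes. The median log2 fold change was 0.55, a 1.46-fold difference, against -0.04 for all tested genes. The sizes were moderate: 4 genes were at least 2-fold higher, 12 were between 1.5-fold and 2-fold, 18 between 1.2-fold and 1.5-fold, and 6 below 1.2-fold. In 34 genes all PHZ libraries lay above all PBS libraries, which holds for 22.5% of all tested genes, and 18 of these 34 were not called. Together the tested members took 2354, 2309 and 2473 CPM in the PBS libraries and 3777, 3397 and 3060 CPM in the PHZ libraries, in replicate order. In a bulk measurement a different mix of cells and a different amount of RNA per cell cannot be told apart.

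The number of calls rested on single libraries. It was 8 without PBS replicate 1, 0 without PBS replicate 2, 0 without PBS replicate 3, 8 without PHZ replicate 1, 3 without PHZ replicate 2 and 6 without PHZ replicate 3, by edgeR. The share of all tested genes called higher was 7.43%, 0%, 0%, 8.78%, 1.55% and 2.68% in the same order. The fits with 0 members called no gene at all in either direction. The members' median log2 fold change stayed between 0.47 and 0.64 in these fits. Ebna1bp2, Bysl and Fbl were called in 12 of 16 alternative fits and Gar1, Nhp2 and Nop2 in 11. Bop1, Ncl, Nop14, Nop58, Nop9, Rrp1 and Rrp7a, 7 of the 16, were not called in any of the 6 fits that left out 1 library. Leaving out the 3 libraries that go against their sex label keeps only 1 PBS library. The members' median log2 fold change was 0.57 in that fit.

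**Figure D1:**
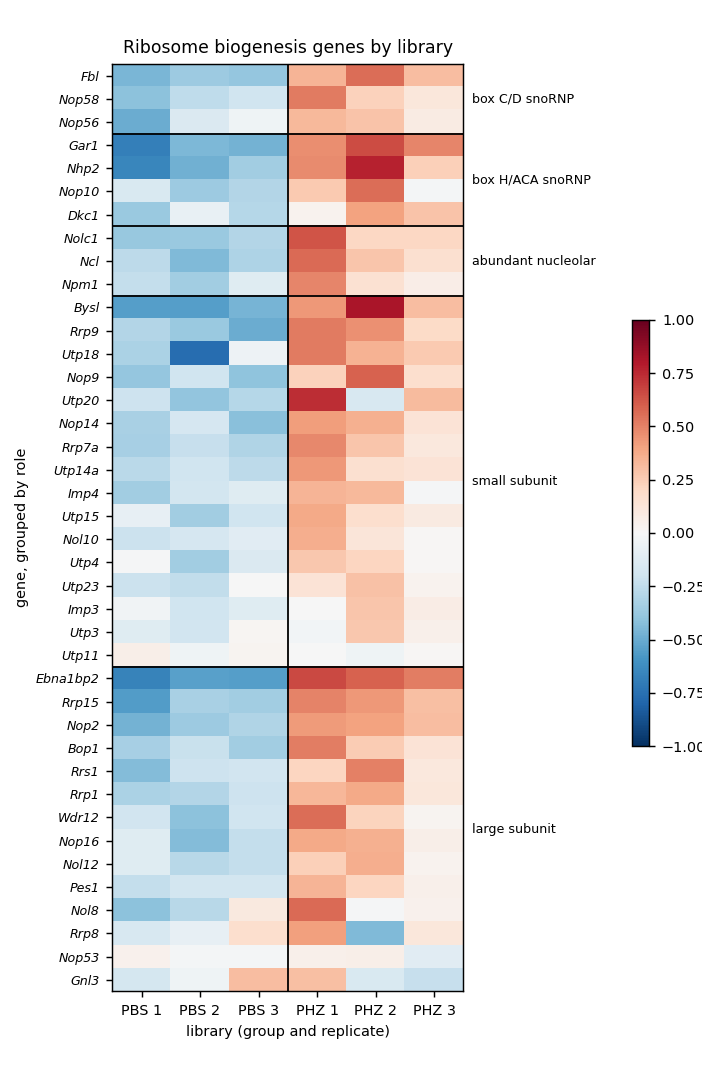
Log2 CPM of the 40 tested genes, minus each gene's mean over the 6 libraries, with libraries in columns and genes in rows grouped by role (red, above the gene's mean; blue, below it). Most rows are blue in the 3 PBS columns and red in the 3 PHZ columns, while Nop53, Utp11, Gnl3, Rrp8, Nol8 and Utp3 do not separate the groups.

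Of the 3 box C/D core genes chosen by the rule, Fbl and Nop58 rose and Nop56 was not called. Fbl (Entrez gene 292747), fibrillarin, the methyltransferase of the particle, had 55.6, 59.5 and 58.6 CPM in the PBS libraries and 96.8, 112.6 and 94.8 CPM in the PHZ libraries. All PHZ values lay well above the PBS values, which differed little from each other. The rise was 1.75-fold (log2 fold change 0.81, SE 0.12, edgeR adjusted p = 0.0196). Nop58 (Entrez gene 60373) and Nop56 (Entrez gene 362214) are the paired scaffold proteins of the particle. Nop58 had 71.6, 79.9 and 82.7 CPM in PBS and 136.3, 111.3 and 102.8 CPM in PHZ libraries, a rise of 1.496-fold (edgeR adjusted p = 0.048). Nop56 had 71.0, 90.7 and 97.4 CPM in PBS and 126, 122.1 and 106.4 CPM in PHZ libraries. Its groups did not overlap, but PBS replicate 3 and PHZ replicate 3 lay close together and the gene was not called (edgeR adjusted p = 0.0963). In FPKM these 3 genes stood in PBS rats at 51.0 ± 2.96 for Fbl, 46.4 ± 6.06 for Nop56 and 40.0 ± 2.21 for Nop58 (SD, n = 3). In PHZ rats they stood at 85.7 ± 4.83, 61.6 ± 9.28 and 58.3 ± 14.1 FPKM. Snu13, the other core protein of the particle and also part of the U3 snoRNP, falls outside the rule and had 87.5 ± 17.7 FPKM in PBS and 122 ± 20.2 FPKM in PHZ rats (SD, n = 3). It was not called (edgeR adjusted p = 0.0775).

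Of the 4 box H/ACA genes, Gar1 and Nhp2 rose and Dkc1 and Nop10 were not called. Gar1 (Entrez gene 499709), the subunit that binds the catalytic face of dyskerin, had 9.24, 10.9 and 10.7 CPM in PBS and 20.5, 23.3 and 20.8 CPM in PHZ libraries. Both groups were tight and far apart, a 2.10-fold rise (log2 fold change 1.07, SE 0.15, edgeR adjusted p = 0.0186). Nhp2 (Entrez gene 287273), an RNA-binding subunit, rose 2.00-fold, from 16.95, 19.1 and 20.9 CPM to 36.9, 45.5 and 31.5 CPM (edgeR adjusted p = 0.0237). Dkc1 (Entrez gene 170944), dyskerin itself, had 81.9, 100.5 and 86.8 CPM in PBS and 108.3, 139.2 and 128.7 CPM in PHZ libraries. The groups were apart, yet PBS replicate 2 came near PHZ replicate 1, and the estimate of 1.40-fold was not called (edgeR adjusted p = 0.0731). Nop10 (Entrez gene 691534), the smallest subunit, had 89.5, 77.4 and 81.2 CPM in PBS and 119.1, 146.6 and 98.2 CPM in PHZ libraries and was not called either (edgeR adjusted p = 0.0758). By FPKM the least abundant transcript of the set was Gar1, at 8.41 ± 0.78 in PBS and 16.5 ± 0.55 in PHZ rats (SD, n = 3). The most abundant was Nop10, at 104.8 ± 10.8 and 146.9 ± 22.8 FPKM.

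Ratios of FPKM within a library show how subunits moved against each other. These 10 pairs were picked after the values were seen. The Gar1 to Dkc1 ratio was 0.162 in PBS and 0.237 in PHZ libraries (geometric means), a log2 difference of 0.55. In log2 it was -2.66, -2.71 and -2.52 in PBS and -1.96, -2.12 and -2.14 in PHZ libraries, so the groups did not overlap. The Nhp2 to Dkc1 ratio went from 0.607 to 0.863, while Nop10 to Dkc1 stood at 2.01 and 2.09, a difference far inside its spread. Fbl to Nop56 went from 1.1 to 1.4 with overlapping groups. Bop1 to Pes1 (0.383 and 0.439) and Ncl to Npm1 (0.49 and 0.561) were the other pairs whose groups were apart. In all 4 pairs with groups apart the two-sided exact permutation p was 0.1, the smallest that 3 libraries against 3 allow, and 0.25 after Benjamini-Hochberg adjustment over the 10 pairs.

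**Figure D2:**
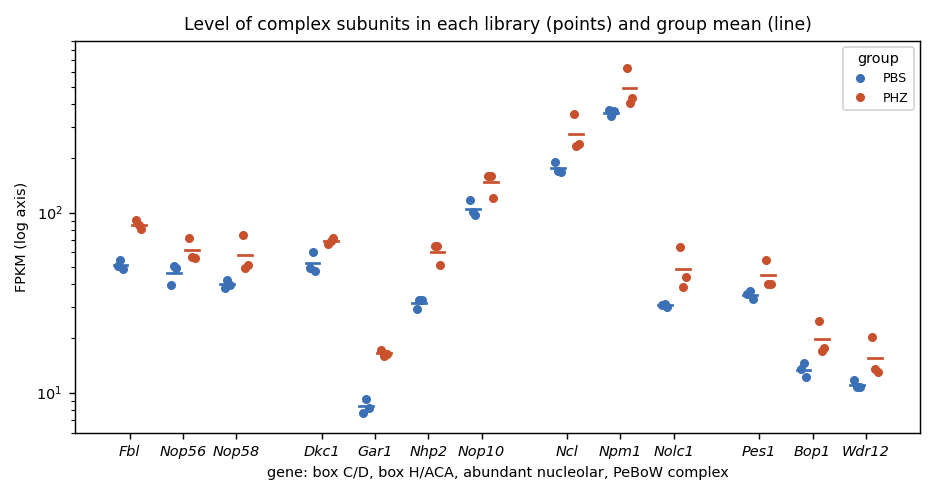
FPKM on a log axis of the box C/D and box H/ACA subunits, the abundant nucleolar proteins and the PeBoW complex, with 1 point per library (blue, PBS; red, PHZ) and a line at the group mean of 3. Gar1 and Nhp2 show the widest gaps between groups, and PHZ replicate 1 is the highest point for all genes plotted except Dkc1.

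Of the abundant nucleolar proteins, Ncl and Nolc1 rose and Npm1 was not called. Npm1 (Entrez gene 25498), nucleophosmin, a histone and ribosomal protein chaperone, had the highest FPKM of all the genes, at 359.3 ± 13.3 in PBS and 491.1 ± 125 in PHZ rats (SD, n = 3). Its CPM values were 435.3, 403.6 and 472 in PBS and 722.3, 570.6 and 539.2 in PHZ libraries. It was not called, with an estimate of 1.40-fold (edgeR adjusted p = 0.0936). Processed pseudogenes of Npm1 are common in mammals, so its level is uncertain where reads fit more than one copy. Ncl (Entrez gene 25135), nucleolin, an RNA-binding protein of polymerase I transcription and early processing, rose 1.60-fold, from 447, 395 and 433.5 CPM to 795.1, 650.8 and 597.2 CPM (edgeR adjusted p = 0.0409). Nolc1 (Entrez gene 64896), a phosphoprotein that chaperones snoRNPs, had 105, 105.8 and 111.4 CPM in PBS and 211.7, 157.4 and 157.9 CPM in PHZ libraries. The PBS values were nearly equal, PHZ replicate 1 was the highest, and the rise was 1.64-fold (edgeR adjusted p = 0.035).

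Of 16 small subunit factors 5 rose and 11 were not called, with a median log2 fold change of 0.47. Bysl (Entrez gene 359727), bystin, which acts late in small subunit maturation, had 17.99, 17.99 and 19.0 CPM in PBS and 35.5, 46.3 and 32.6 CPM in PHZ libraries. The PBS values were almost identical and the PHZ values spread more widely, a 2.08-fold rise (edgeR adjusted p = 0.0212). Rrp9, a protein of the U3 snoRNP, which guides early cuts of the precursor, rose 1.72-fold, from 10.9, 10.4 and 9.50 CPM to 19.3, 18.4 and 15.3 CPM (edgeR adjusted p = 0.0321). Nop14, a processome component, rose 1.52-fold, from 27.8, 31.0 and 26.1 CPM to 46.6, 44.5 and 38.2 CPM (edgeR adjusted p = 0.0376). Nop9 (1.59-fold, edgeR adjusted p = 0.0441) and Rrp7a (1.5-fold, edgeR adjusted p = 0.0419) were the others called. Imp4, a U3 snoRNP protein, had 38.2, 42.9 and 44.7 CPM in PBS and 61.7, 61.1 and 48.2 CPM in PHZ libraries and was not called (edgeR adjusted p = 0.0852).

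Among 8 Utp genes, which encode building blocks of the processome, edgeR called 0, with 4 at an unadjusted p under 0.05. DESeq2 called 2, Utp14a and Utp18, and edgeR called Utp14a with globin genes removed before scaling. The shares of all tested genes called higher were 8.99% by edgeR and 14.1% by DESeq2, so counts this small in 8 genes say little about them. Utp14a, a helicase cofactor, came nearest, with an estimate of 1.41-fold and PBS values of 32.3 to 33.7 CPM against 42.7 to 52.5 CPM (edgeR adjusted p = 0.0517). Utp18 had a larger estimate, 1.66-fold, and a wider spread, with 11.7 to 19.2 CPM in PBS and 23.8 to 28.5 CPM in PHZ libraries. Utp20 had 25.3 to 28.7 CPM in PBS, and its PHZ values ran from 29.7 CPM in replicate 2 to 55.5 CPM in replicate 1. Utp11 was level: 36.3, 33.9 and 35.6 CPM in PBS and 34.9, 33.9 and 35.3 CPM in PHZ libraries. Its log2 fold change was -0.03 with an SE of 0.11 (edgeR adjusted p = 0.886), and its sign turned without PBS replicate 1.

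Of 14 large subunit factors 5 rose and 9 were not called, with a median log2 fold change of 0.54. Ebna1bp2 (Entrez gene 114021), an early assembly factor, had the highest fold change of all 40 tested genes. It had 28.8, 31.4 and 31.1 CPM in PBS and 72.2, 68.6 and 65.1 CPM in PHZ libraries, with little spread in either group. The rise was 2.25-fold (log2 fold change 1.17, SE 0.11, edgeR adjusted p = 0.0154). Nop2 (Entrez gene 314969), a ribosomal RNA cytosine methyltransferase, was also tight in both groups, with 40.7, 43.8 and 45.6 CPM in PBS and 75.6, 74.4 and 69.7 CPM in PHZ libraries (1.69-fold, edgeR adjusted p = 0.019). Rrp15, a pre-ribosome component, rose 1.77-fold, from 10.4, 12.2 and 11.99 CPM to 21.5, 20.7 and 18.8 CPM (edgeR adjusted p = 0.0238). Rrp1, another component of early large subunit particles, rose 1.47-fold, from 29.2, 29.6 and 31.4 CPM to 45.6, 47.2 and 39.2 CPM (edgeR adjusted p = 0.0378).

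Bop1, Pes1 and Wdr12 form the PeBoW complex, which is needed for large subunit processing. Bop1 had 32.7, 35.2 and 32.4 CPM in PBS and 58.9, 49.0 and 45.4 CPM in PHZ libraries, a rise of 1.53-fold (edgeR adjusted p = 0.0378). Pes1 had 69.2, 71.7 and 71.7 CPM in PBS and 103.4, 94.8 and 84.3 CPM in PHZ libraries, and Wdr12 had 17.4, 15.02 and 17.4 CPM against 29.4, 23.3 and 20.3 CPM. Neither was called, at edgeR adjusted p = 0.0675 for Pes1 and edgeR adjusted p = 0.0851 for Wdr12. By CPM all 3 genes had the same order among PHZ libraries, highest in replicate 1 and lowest in replicate 3. In FPKM replicate 1 was again highest for all 3, but Bop1 and Pes1 were lowest in replicate 2. By FPKM Pes1 was the most abundant of the complex in PBS rats, at 35.0 ± 1.75, against 13.4 ± 1.23 for Bop1 and 11.04 ± 0.60 for Wdr12 (SD, n = 3).

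In 4 large subunit genes, Nop53, Gnl3, Rrp8 and Nol8, the groups overlapped and none was called. Nop53 (Entrez gene 292624), a late assembly factor that recruits the RNA exosome, was the large subunit factor with the highest FPKM (138.8 ± 10.1 in PBS and 133.4 ± 16.2 in PHZ, SD, n = 3). It had 208.6, 199.3 and 199.7 CPM in PBS and 209, 210.4 and 187 CPM in PHZ libraries, a log2 fold change of -0.00 with an SE of 0.12 (edgeR adjusted p = 0.99). Gnl3 (Entrez gene 290556), nucleostemin, a nucleolar GTPase of stem and dividing cells, had 66.9, 73.7 and 93.5 CPM in PBS and 93.0, 67.9 and 64.5 CPM in PHZ libraries. The groups overlapped (log2 fold change -0.05, SE 0.20, edgeR adjusted p = 0.869). The sign for Nop53 turned with globin genes removed before scaling, and that for Gnl3 turned with FPKM in place of counts. Rrp8, a ribosomal RNA methyltransferase, had a log2 fold change of 0.09 (SE 0.27) and Nol8 one of 0.40 (SE 0.22).

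Gnl3 also differed in the length the authors listed for it, which varies between libraries where a gene has several transcripts. The files list 7 transcripts for Gnl3. Its length was 2680, 3099 and 3179 bases in PBS and 2524, 2528 and 2584 bases in PHZ libraries, shorter in all PHZ than in all PBS libraries (two-sided exact permutation p = 0.1, the smallest 3 against 3 allow; chosen after the values were seen). Among 5122 tested genes whose listed length varies by at least 1 base, 9.25% were shorter in all PHZ libraries and 3.69% longer. Gnl3 was not alone among the members. Npm1 was slightly shorter in all PHZ libraries (1283.8 to 1285.3 against 1285.9 to 1288.7 bases). Gar1 was longer in all of them (1305 to 1349 against 1289 to 1304 bases). With the length taken into account, Gnl3 stood at 26.8 ± 1.52 FPKM in PBS and 29.9 ± 9.29 FPKM in PHZ rats (SD, n = 3), with PHZ replicate 1 highest at 40.7 FPKM.

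**Figure D3:**
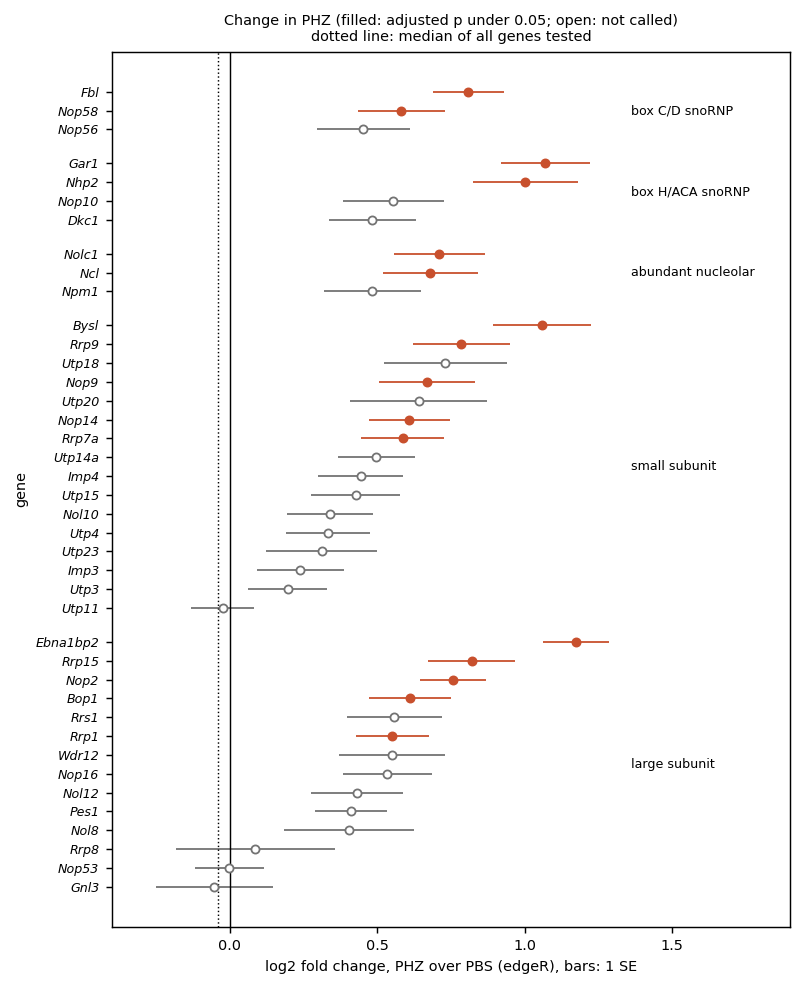
Log2 fold change of PHZ over PBS with bars of 1 SE for the 40 tested genes, grouped by role (filled red, edgeR adjusted p under 0.05; open grey, not called). Values run from -0.05 for Gnl3 to 1.17 for Ebna1bp2, and the dotted line marks the median of all tested genes at -0.04.

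Nol3 matches the name pattern but encodes an inhibitor of apoptosis rather than a ribosome factor. It was nearly silent, with 2, 4 and 0 expected counts in PBS and 21, 5 and 5 in PHZ libraries, and was not tested. A count of 0 in PBS replicate 3 allows up to 0.187 CPM, for counting error only.

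The authors' deposited table marks 1 of the 41 genes, Ebna1bp2, as up and none as down. It marks 546 of 17172 genes, 3.18%, as up. No row marked there has an absolute log2 ratio under 1 or a Probability under 0.8. Bysl lay just outside, with a log2 ratio of 0.99 and a Probability of 0.993 in the authors' deposited table, as did Gar1 with 0.98 and 0.988.

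The coefficient of variation between libraries had a median of 7.5% in PBS and 11.9% in PHZ rats. For all tested genes, which include genes near the low-count filter, it was 15.4% and 19.1%. Whether these genes are steadier than others at a like level was not tested. The coefficient was larger in PHZ than in PBS rats for 32 of the 40 genes, as it was for 58.9% of all tested genes. By CPM, PHZ replicate 1 was the highest library for 24 of the 40 and PHZ replicate 2 for 14, and PHZ replicate 3 for 0. The same count was not made over all tested genes, so this order may not be particular to these genes. The mean centred log2 CPM of the members, the average over genes of log2 CPM minus the gene's mean, was 0.37, 0.29 and 0.13 in PHZ replicates 1, 2 and 3. In PBS replicates 1, 2 and 3 it was -0.30, -0.29 and -0.21. By CPM the roles did not share one order. The abundant nucleolar genes were highest in PHZ replicate 1, at 0.56 against 0.21 and 0.15. The box H/ACA genes were highest in PHZ replicate 2, at 0.59 against 0.31 and 0.25. In FPKM, though, Gar1, Nhp2 and Nop10 were highest in PHZ replicate 1 and Dkc1 in PHZ replicate 3. The order of the PHZ libraries thus depends on the unit. Across the 40 genes the level and the change showed little relation (Pearson r = 0.02 and Spearman rho = 0.02 between log2 FPKM and log2 fold change, as a description, the genes sharing the same 6 libraries).

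Markers of several other cell types and of cell division moved with the groups too, while those of some cell types did not. All 10 listed DNA replication genes rose, with a median log2 fold change of 1.14. Their mean centred log2 CPM was -0.67 to -0.55 in PBS libraries. It was 0.48, 0.84 and 0.51 in PHZ replicates 1, 2 and 3, so replicate 1 was the lowest PHZ library here. Of 13 erythroid genes 7 rose. Among all tested genes edgeR called 8.99% higher and 4.17% lower. PHZ replicate 1, the library highest in ribosome biogenesis genes, was the lowest PHZ library for the erythroid list as well (-0.01 against 0.55 and 0.92). Of 9 B lineage genes 6 fell, and these 6 summed to 522.7 to 613.6 CPM in PBS and 130.5 to 212.7 CPM in PHZ libraries. All 9 summed to 673 to 730.8 CPM and 161.7 to 279.2 CPM. Of 9 T and NK genes 5 fell, and these 5 summed to 28.2 to 50.7 CPM in PBS and 8.99 to 12.5 CPM in PHZ libraries. All 9 summed to 318 to 518.6 CPM and 202.8 to 235.8 CPM, most of it from Cd4 and Nkg7, which were not called. None of 8 tested neutrophil genes was called by edgeR (3 at an unadjusted p under 0.05) and 3 were called by DESeq2. DESeq2 called 3476 of 13547 tested genes in either direction. The neutrophil genes summed to 10830 to 20680 CPM in PBS and 4605 to 9715 CPM in PHZ libraries. Ltf, a neutrophil granule gene, was at 0 in 3 libraries. None of 6 monocyte and macrophage genes was called by edgeR, and the groups overlapped in 5 of them. None of 2 tested megakaryocyte genes was called, and 1 of 4 tested stromal and endothelial genes fell. The part of these lists in the change of ribosome biogenesis genes was not tested.

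The rest of the pathway was read from 96 other genes of ribosome production, of which 24 rose and none fell. Among all tested genes 8.99% rose and 4.17% fell. For the lower direction edgeR and DESeq2 both gave 0 called and 0 at an unadjusted p under 0.05. The median log2 fold change was 0.48. Of 16 genes of polymerase I transcription 6 rose. Taf1b, a subunit of the polymerase I selectivity factor, had the largest change, from 7.596, 6.58 and 8.52 CPM to 38.4, 27.9 and 17.5 CPM (3.69-fold, edgeR adjusted p = 0.0215). Polr1c, a subunit shared by polymerases I and III, rose 2.08-fold (edgeR adjusted p = 0.0267), the initiation factor gene Rrn3 1.53-fold (edgeR adjusted p = 0.0354) and the upstream binding factor gene Ubtf 1.45-fold (edgeR adjusted p = 0.0411). Polr1a, the largest polymerase I subunit, had overlapping groups, with 16.8 to 22.5 CPM in PBS and 21.8 to 42.0 CPM in PHZ libraries (edgeR adjusted p = 0.139). Myc, a transcription factor known to drive many genes of ribosome production, also had overlapping groups, with 55.9, 72.0 and 82.1 CPM in PBS and 104, 70.2 and 82.2 CPM in PHZ libraries (edgeR adjusted p = 0.354).

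Of 29 further small subunit genes 6 rose, with the smallest p for the processome genes Pwp2 (1.84-fold, edgeR adjusted p = 0.0187) and Tbl3 (1.84-fold, edgeR adjusted p = 0.0215). Of 44 further large subunit genes 10 rose, led by Mrto4, a placeholder for the ribosomal stalk, at 2.12-fold (edgeR adjusted p = 0.0175) and the helicase gene Ddx56 at 1.81-fold (edgeR adjusted p = 0.0214). Of 7 snoRNP assembly genes 2 rose, the ATPase gene Ruvbl1 (1.69-fold, edgeR adjusted p = 0.0214) and Pih1d1 (2.05-fold, edgeR adjusted p = 0.0437), both of which act in box C/D assembly.

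Related gene families give the setting. Of 71 mitochondrial ribosomal protein genes 30 rose, with a median log2 fold change of 0.57. Of 79 tested cytosolic ribosomal protein genes 2 rose, with a median of 0.32, and of 7 RNA exosome genes 3 rose, with a median of 0.65. Among all tested genes 8.99% rose. Estimates were above 0 for 69 mitochondrial, 76 cytosolic and 6 exosome genes, against 47.6% of all tested genes. All PHZ libraries lay above all PBS libraries in 56, 42 and 6 of them, against 22.5% of all tested genes. The cytosolic ribosomal protein genes, whose products the factors described here assemble, had their highest level in PHZ replicate 2 (0.33), and PHZ replicate 3 (-0.04) lay near the PBS libraries (-0.17 to -0.13). The difference between families was not tested.

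**Figure D4:**
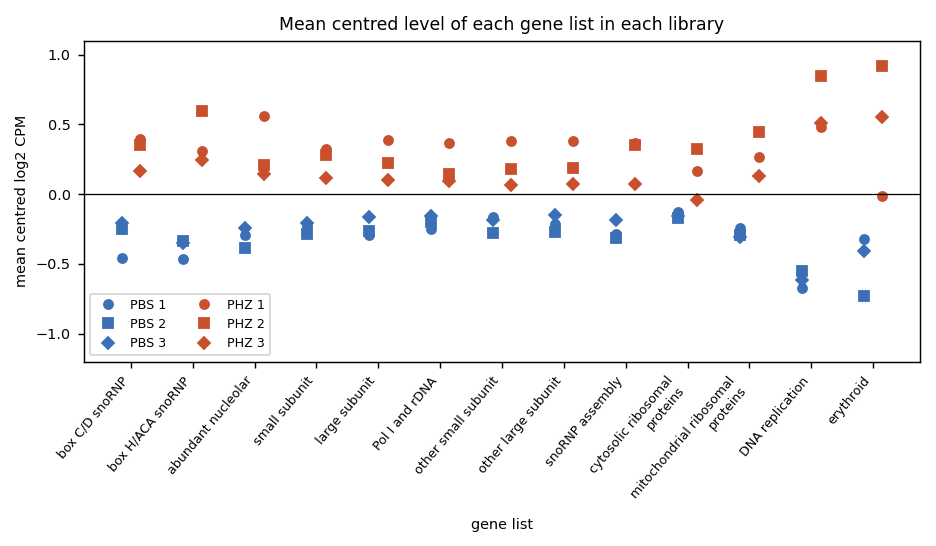
Mean centred log2 CPM of each gene list in each library (blue, PBS; red, PHZ; marker shape, replicate 1, 2 or 3). All role groups of ribosome biogenesis lie above 0 in the 3 PHZ libraries and below 0 in the 3 PBS libraries. PHZ replicate 1 is high for most of them but lowest among PHZ libraries for the DNA replication and erythroid lists.

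The deposited annotation and the promoters of the genes were also read. As the genes were chosen by name as nucleolar factors, their annotation is not an independent trait. The annotation in the files gives the term nucleolus to 31 of the 41, against 5.34% of 13766 annotated genes. It gives rRNA processing to 15, against 0.879%, and leaves out such core members as Fbl, Nop56 and Dkc1. Promoter windows of 250 bases before to 50 after a RefSeq start (build GRCr8) were found for 37 of the 41 genes. The palindrome CACGTG, a form of E-box, is on either strand of 14 of these 37 windows (37.8%), against 9.61% of 8676 windows of tested genes and 6.65% of all 27457 windows. It is in 7 of 15 windows of genes that rose and 7 of 22 of genes not called. CACGTG contains the base pair step CG, which was also more frequent in the windows of these genes. The median ratio of observed to expected CG was 0.88, against 0.77 for windows of tested genes and 0.42 for all windows. The part of this in the CACGTG shares was not tested. Positions are counted from the start the table gives, which is the annotated gene start in 20 of the 37. The first base of CACGTG lay 4 to 39 bases after the start in 7 genes. The 30 bases around it are shown for the 7 genes that rose and for Gnl3, which did not, with CACGTG in capitals, in the direction of transcription (24 bases for Nop2, whose window ends there).
Fbl: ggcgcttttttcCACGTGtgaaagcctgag
Ebna1bp2: gcgtcttgctggCACGTGgagtggcagccg
Bysl: tagccggcttcaCACGTGtaaactttgtgg
Nop2: cttccccaagtgCACGTGgagcgg
Rrp15: ccgttcaggactCACGTGtgaaccccggag
Rrp1: tggcgtgacgcaCACGTGtcgtcactcgag
Rrp7a: gtgcctgtgcacCACGTGtatactgcgccc
Gnl3: agttccagttcgCACGTGgcgcccgagacg

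The stretches for Fbl (chr1:92597416-92597445, plus strand), Ebna1bp2 (chr5:137433552-137433581, plus), Bysl (chr9:20880361-20880390, plus), Nop2 (chr4:159618992-159619015, plus) and Rrp15 (chr13:100830769-100830798, minus) begin their E-box 22, 31, 33, 39 and 27 bases after the start. In Rrp1 (chr20:10260552-10260581, plus), Rrp7a (chr7:116153083-116153112, minus) and Gnl3 (chr16:6219790-6219819, minus) it begins 16, 236 and 25 bases before it. Gar1 and Nhp2, which rose about as much as Bysl, have no CACGTG in their windows, which says only that these letters are not there. Other motifs were searched on both strands. The motif of GATA factors, spelled AGATAA, was in 1 window (Bysl), or 2.7%, against 6.18% of windows of tested genes. TTTGGCGC and TTTCGCGC, E2F-type motifs, were in 0 windows, against 0.91% and 0.67%. Each of 2 longer palindromes that were also searched was found in 1 window, that of Npm1, or 2.7%, against 1.05% and 1.97% of windows of tested genes.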

How the data were processed

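Per the file headers, the authors deposited an expected count, an FPKM value and a gene length (another per-gene number, in bases) for each library, and a comparison table that holds group FPKM, the log2 ratio between groups and a Probability score. The submitters' processing notes name HISAT, GATK, RSEM and the build rn6, while the role and version of each are not given here. Unlisted genes were set to 0. Expected counts were rounded and tested with edgeR 4.0.16 in R 4.3.3 (TMM, filterByExpr, robust glmQLFit, glmQLFTest, treatment as the only term, Benjamini-Hochberg over all 13547 tested genes, called under 0.05). Standard errors were taken as the absolute log2 fold change divided by the root of the F statistic. DESeq2 1.42.0 and limma 3.58.1 were alternatives. Checked on simulated data, the test missed most 2-fold changes, and false calls made up more than the nominal share of its calls, so a gene not called may still differ. Samples were separate rats. Replicates differed by a chi-square of 48.3 to 177 per degree of freedom, so none were merged. The libraries held 13196249 to 19492793 counts, and the spread between rats exceeded counting error.

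The genes and lists were chosen with earlier results of these data known. Values are printed for the 12 smallest p-values, for the highest and lowest fold change and highest FPKM in each role, for 15 core genes, and for the 2 smallest p-values in each pathway list with Polr1a, Ubtf, Rrn3 and Myc. Any other gene is named only to complete a small count, a choice made with its values in view. Of 101 pathway symbols 96 were found, some by their RefSeq symbol. Promoters come from RefSeq, build GRCr8, matched by gene ID.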

Additional observations from a re-analysis of the deposited data

How the results depend on the processing

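In the main analysis edgeR called 16 members and 24 other pathway genes higher. Members called were 10 with upper-quartile scaling, 8 with labelled sex as a covariate, 8 and 7 with limma on log2(FPKM + 1) and log2(FPKM + 0.1), 24 with DESeq2 and 10 without both libraries numbered 1. Other pathway genes called were 12, 10, 12, 11, 42 and 17 in the same settings. The share of all tested genes called higher was 7.02%, 5.06%, 8.35%, 8.07%, 14.1% and 12.3% there. The sex covariate used the labels, which Y-linked transcripts contradict in 3 libraries. It therefore did not adjust for sex as these transcripts show it. The fit without the 3 libraries against their sex label keeps 1 PBS library, so only its estimates are given. It was chosen after seeing the data, as was leaving out the libraries numbered 1. Leaving out 1 library gave 0 to 8 members and 0 to 16 pathway genes, against 0% to 8.78% of all tested genes called higher. With a replicate block both counts were 0, as was the count over all genes (28 of 40 members at an unadjusted p under 0.05). The numbers share no stated pairing, and same-numbered libraries deviated together with r = 0.21, 0.06 and 0.00, so the block is not used. The share of all calls that were higher was 68.3%, and 58.7% with upper-quartile scaling and 55.1% with DESeq2. The members' median log2 fold change ran from 0.45 to 0.64 over all settings, always above that of all genes. No member or other pathway gene was called lower in the settings listed here. Estimates near 0 changed sign. Gnl3 was at 0.12 in both limma fits and between -0.231 and 0.10 when any 1 library was left out, and at -0.321 without both libraries numbered 1. Nop53 ran from -0.027 to 0.055 in those fits and was at 0.002 with globin genes removed, 0.014 with no filter, 0.071 without the 3 libraries against their sex label and 0.009 without both libraries numbered 1. Utp11 ran from -0.05 to 0.001 with 1 library left out and was at 0.007 without both libraries numbered 1. Precision is limited by 3 rats a group, 4 residual degrees of freedom and a biological coefficient of variation of 35.2%.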
